A study of Mus musculus with 24 samples.

Results

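The transcripts of 7 enzymes that handle ammonia, ornithine, arginine and glutamine were followed in mouse intestinal organoids: Cps1, Otc, Ass1, Asl, Oat, Odc1 and Glul. They were chosen by name, with their on against off values in colonic organoids carrying both mutations already known, and are 7 of the 45706 gene identifiers counted. Organoids are epithelial cultures grown in gel from isolated crypts, here of the proximal small intestine (SI) or of the colon (COL) of C57BL/6N mice. All cultures carried Villin::CreERT2, a Cre recombinase made only in intestinal epithelium and active only with 4-hydroxytamoxifen (4-HT). The BRAF cultures carried BraffloxV600E/+, the p53 cultures Trp53LSL-R172H/+, and the BRAFp53 cultures both alleles. Off organoids received ethanol and by design make neither mutant protein. Recombination, which turns both alleles on, was triggered in the on organoids with 4-HT for 24 h, at 0.5 µM in SI with RNA taken on day 8 and at 3.5 µM in COL with RNA taken on day 3, so tissue, dose and day cannot be told apart. Per the methods of the study, COL medium also held Wnt3a and CHIR99021, an activator of Wnt signaling. Each of the 12 groups had 2 libraries, and each genotype was 1 donor culture per tissue. The p-values of induction and of differences between responses therefore measure the spread between libraries of a culture and not between mice. Only in the comparison of off organoids is the spread that between donor cultures, which also differed in genotype. A difference between genotypes is also a difference between donors.

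The urea cycle fixes ammonia into carbamoyl phosphate (CPS1), joins it to ornithine to make citrulline (OTC), and turns citrulline into argininosuccinate (ASS1) and arginine (ASL), from which urea is released and ornithine renewed. The liver runs the whole cycle. The epithelium of the small intestine is known to run its mitochondrial opening steps to make citrulline from glutamine and to release it, and the kidney completes arginine synthesis. OAT links ornithine to glutamate and proline, ODC1 opens polyamine synthesis, and GLUL makes glutamine from glutamate and ammonia. In bulk RNA, fewer cells of a type and less RNA per cell cannot be told apart.

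Totals per library were 51.2 to 78.2 M counts in COL and 44.4 to 68.2 M in SI (M stands for 1000000), so that 3 counts correspond to 0.0368 to 0.0572 CPM (counts per 1000000 counts of the library, after scaling) in COL and 0.0481 to 0.0878 CPM in SI. The induced Trp53 allele was visible as a rise of Trp53 in COL p53 (log2 fold change 0.94, edgeR quasi-likelihood test, adjusted p = 0.0227) and SI BRAFp53 (0.52, adjusted p = 0.0236), while SI p53 (0.76, adjusted p = 0.194) did not pass. Braf lay between 0.38 and 0.50 log2 higher in the 4 cultures with its floxed allele and passed in none, and the counts do not separate mutant from wild-type transcripts. Epithelial markers summed to 9059.2 to 30188.5 CPM. The summed levels of 8 fibroblast, 3 endothelial, 6 immune and 7 hepatocyte markers were at most 3.86, 1.36, 29.3 and 48.5 CPM, and Fgb was at or below 3 counts throughout. Some features of the libraries touch the results. In SI BRAF, on replicate 1 held 17.1 CPM of Xist, the RNA of the inactive X chromosome, against 0.234 to 0.471 CPM in the other 3 libraries of that culture, whereas SI p53 and SI BRAFp53 held 115.3 to 165.8 CPM. The Y-linked Ddx3y was at 36.1 CPM in that library and at 32.8 to 40.3 CPM in the other 3. It was at 45.8 to 64.8 CPM in COL and at most 0.065 CPM in SI p53 and SI BRAFp53, so the SI cultures differed in both genes, as did COL from those SI cultures, and the part of this in comparisons between cultures was not tested. SI BRAF changes of named enzymes and carriers are given with and without that library, while marker calls and counts per list are given with it. The COL BRAF culture carried Gata4, a factor of the proximal gut, at 32.1 to 49.4 CPM against 0.293 to 2.67 CPM in the other COL cultures and 80.1 to 118.5 CPM in SI. All COL libraries held the colonic carbonic anhydrase Car1, but COL BRAF off held the least, at 1327.7 to 1347.1 CPM. The other COL off libraries held 3475.7 to 18010.8 CPM of it. The enterocyte marker Fabp1 was at 84.3 to 90.3 CPM in COL BRAF off and at most 0.58 CPM in the other COL off cultures. Slc2a2, Mttp and Sis were likewise highest there among the COL off cultures, while Fabp2 and Anpep were lowest. Among colonic markers, Hoxb13 did not exceed 0.434 CPM in COL. Xist, Ddx3y and these comparisons were chosen after their values were seen.

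In the coordinates of GRCm38, the build named in the methods of the study, Cps1 (ENSMUSG00000025991) lies at chr1:67123026-67231259 on the plus strand, Otc (ENSMUSG00000031173) at chrX:10252305-10321024 on the plus strand and Oat (ENSMUSG00000030934) at chr7:132557478-132576398 on the minus strand. Ass1 (ENSMUSG00000076441) lies at chr2:31470207-31520672 and Odc1 (ENSMUSG00000011179) at chr12:17544794-17551505, both on the plus strand, with Asl (ENSMUSG00000025533) at chr5:130011258-130029247 on the minus strand. Glul (ENSMUSG00000026473, chr1:153899944-153909723, plus strand) shares 116 exonic bases with Teddm2 on the other strand and 93 with Mir8114 on the same strand. The use of strand in counting is not given in the sources used here, so reads of these stretches cannot be told apart. The promoters of Otc and Oat are shown because these genes fell in both tissues while differing in type of promoter. Each window holds 250 bases before and 50 bases after the RefSeq start (GRCm38.p6), 5′ to 3′ on the strand of the gene, with capitals for matches to the motifs named in the next paragraph.
Otc, chrX:10252055-10252354, plus strand: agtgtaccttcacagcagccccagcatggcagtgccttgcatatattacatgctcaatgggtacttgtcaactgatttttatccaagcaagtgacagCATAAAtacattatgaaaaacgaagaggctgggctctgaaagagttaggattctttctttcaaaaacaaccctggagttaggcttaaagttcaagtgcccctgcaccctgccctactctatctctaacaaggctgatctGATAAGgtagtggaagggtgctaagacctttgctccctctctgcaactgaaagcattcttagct
Oat, chr7:132576349-132576648, minus strand: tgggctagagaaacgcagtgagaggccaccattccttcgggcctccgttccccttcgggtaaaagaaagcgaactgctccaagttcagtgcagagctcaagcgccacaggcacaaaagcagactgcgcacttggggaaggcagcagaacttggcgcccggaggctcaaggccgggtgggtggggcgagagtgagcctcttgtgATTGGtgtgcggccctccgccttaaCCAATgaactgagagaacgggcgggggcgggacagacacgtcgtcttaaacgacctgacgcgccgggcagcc

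Of the 7 enzymes, 5 had an entry among 32851 promoter windows of this kind. Letters of 5 motifs were searched on both strands. Those of the TATA box, TATAAA, were present in 13.6% of all windows, and those of the intestinal factor CDX, TTTATG, in 11.9%. The HNF4 letters CAAAGTCCA were present in 0.475%, the GATA letters GATAAG in 7.44% and the CCAAT box in 37.4%. The Otc window was poor in G and C, at 44.3% with 1 CpG against medians of 52.7% and 7 over all windows. It held the CDX letters on the opposite strand 153 bases before the start, read as CATAAA, and the GATA letters 14 bases before it. The Oat window had 61.7% G and C with 22 CpG, and held CCAAT 47 bases before the start on the opposite strand (ATTGG) and 22 bases before it on its own strand. The Glul window (64.3%, 17 CpG) held CCAAT at 113 and 50 bases before the start. The windows of Ass1 (74.0%, 27 CpG) and Odc1 (78.0%, 42 CpG) held none of these letters.

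**Figure D1:**
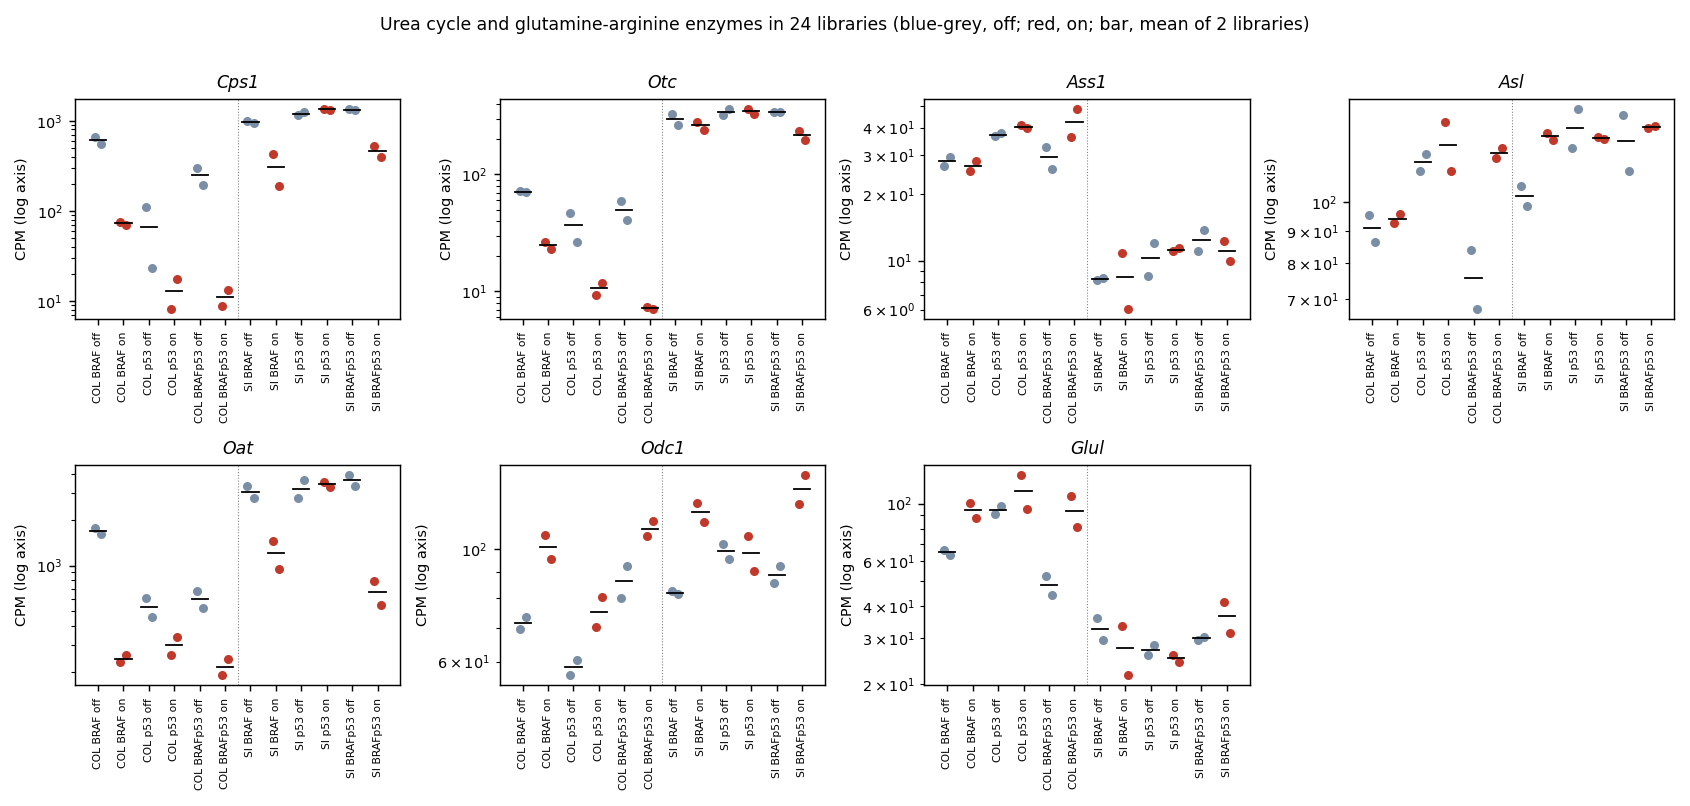
Level of each of the 7 enzymes in all 24 libraries, in CPM on log axes, with 1 panel per gene and 1 column per group; points are libraries (blue-grey, off; red, on) and bars the mean of 2 libraries. Cps1 ranges from 8.19 CPM in a COL p53 on library to 1358.5 CPM in an SI p53 on library, and Otc holds 7.07 to 72.2 CPM in COL and 197.5 to 365.0 CPM in SI.

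Off organoids of the tissues were compared first, with the 2 off libraries of a culture summed and 3 cultures set against 3. Otc, which makes citrulline, and Oat, which links ornithine to glutamate and proline, were lower in COL than in SI, Ass1 and Glul were higher, and Cps1 did not pass. Otc had 72.2 and 70.2 CPM in COL BRAF, 47.3 and 26.6 in COL p53, and 59.0 and 41.0 in COL BRAFp53, against 331.8 and 265.6 in SI BRAF, 323.4 and 362.4 in SI p53, and 341.4 and 339.0 in SI BRAFp53. All COL libraries lay below all SI libraries, and Otc was 6.07-fold lower (log2 -2.60, SE 0.25, adjusted p = 0.0015). Oat spanned 461.7 to 1754.1 CPM in COL off and 2780.9 to 3943.7 CPM in SI off libraries, again with no overlap.

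The difference in Oat was -1.78 (SE 0.45, adjusted p = 0.0255). It was -2.53 (adjusted p = 0.00124) without the COL BRAF culture, and it no longer passed without the COL p53 (-1.52, adjusted p = 0.0542), COL BRAFp53 (-1.54, adjusted p = 0.0763), SI p53 (-1.80, adjusted p = 0.0699) or SI BRAFp53 culture (-1.71, adjusted p = 0.0736). Cps1, which makes carbamoyl phosphate, varied most between the COL donors. It had 664.9 and 550.5 CPM in COL BRAF off, 111.4 and 23.1 in COL p53 off, and 301.2 and 193.5 in COL BRAFp53 off. The SI off libraries held 953.6 to 1342.9 CPM, above all of these. The difference of -1.90 (SE 0.68, adjusted p = 0.0764) did not pass the test, but passed without the COL BRAF culture (-2.91, adjusted p = 0.0134), without the COL p53 culture (-1.45, adjusted p = 0.0484), without COL p53 off replicate 2 (adjusted p = 0.0458), with DESeq2 (adjusted p = 0.00456) and with limma-voom (adjusted p = 0.0416).

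Ass1, which joins citrulline to aspartate, spanned 26.1 to 37.7 CPM in COL off and 8.15 to 13.8 CPM in SI off libraries, and was 3.11-fold higher in COL (log2 1.64, SE 0.21, adjusted p = 0.00295). Glul, glutamine synthetase, spanned 44.3 to 98.1 CPM in COL off and 25.8 to 35.9 CPM in SI off libraries. It was 2.37-fold higher in COL (log2 1.25, SE 0.25, adjusted p = 0.0111), and missed the threshold without the SI p53 culture (1.17, adjusted p = 0.055). Asl, which releases arginine, and Odc1 differed by -0.32 and -0.29 and did not pass. Thus 4 of the 7 enzymes were called, 2 higher and 2 lower in COL, beside 29.6% of all 17789 genes tested (17.0% higher and 12.6% lower). The count was 5 without the COL BRAF culture and 2 without the SI p53 culture. The 10 enterocyte markers were also all lower in COL off organoids, where they summed to 1079.8 to 1679.3 CPM against 12328.0 to 27616.4 CPM in SI off organoids. Among the others, 5 of 7 goblet and 3 of 6 Paneth markers were higher in COL, and 3 of 5 stem cell markers were higher and 1 lower. Also higher in COL were the hepatocyte markers Ttr and Tat (list sum 24.7 to 48.5 CPM in COL off and 13.8 to 18.6 CPM in SI off, with Fgb at or below 3 counts), the immune marker Cd68, the proliferation marker Mcm2 and 3 of 8 epithelial markers. Their part in the result was not tested. Per kb of exon, mean levels in the SI off cultures ran from 1296.1 to 1540.4 CPM for Oat, 176.2 to 238.0 for Cps1 and 70.4 to 80.9 for Otc, against 3.41 to 5.15 for Ass1. The same scale gave 226.8 to 714.1 for Oat, 12.1 to 109.4 for Cps1, 8.71 to 16.8 for Otc and 11.6 to 15.4 for Ass1 in the COL off cultures. Oat was the highest of the 7 in each of the 6 off cultures.

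**Figure D2:**
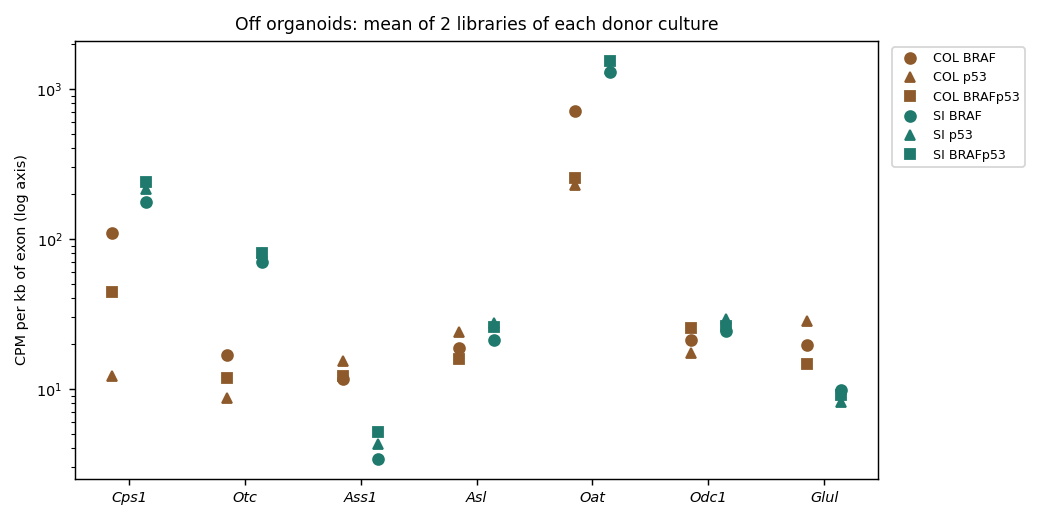
Mean level of each enzyme in off organoids, in CPM per kb of exon on a log axis, so that genes can be compared; each point is the mean of 2 libraries of 1 donor culture. Otc lies higher in all SI cultures than in all COL cultures, and the COL BRAF culture sits above the other COL cultures for Cps1 (109.4), Otc (16.8) and Oat (714.1).

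In COL organoids, induction of BRAFV600E alone was followed by lower Cps1, Otc and Oat and by slightly higher Odc1 and Glul. Cps1 went from 664.9 and 550.5 CPM off to 75.3 and 70.2 CPM on, which was 8.37-fold lower (log2 -3.07, SE 0.57, adjusted p = 0.00304). Otc went from 72.2 and 70.2 to 26.7 and 23.0 CPM (-1.52, SE 0.24, adjusted p = 0.00118). Oat, from 1754.1 and 1616.5 to 230.3 and 256.9 CPM, showed the smallest adjusted p of the 7 (-2.79, SE 0.18, adjusted p = 7.26e-06). For all 3, the on libraries lay far below the off libraries. These 3 calls held without each library in turn.

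Odc1, ornithine decarboxylase, rose from 69.7 and 73.3 to 106.5 and 95.6 CPM (0.49, SE 0.12, adjusted p = 0.0103). Its call was lost without on replicate 1 (0.40, adjusted p = 0.112) or off replicate 1 (0.45, adjusted p = 0.0849). Glul rose from 66.0 and 63.3 to 100.3 and 88.2 CPM (0.54, SE 0.17, adjusted p = 0.044), and lost its call whichever library was left out (adjusted p = 0.0815 to 0.241). Ass1 (26.8 and 29.4 off, 25.4 and 28.1 on) and Asl (95.3 and 86.4 off, 92.5 and 95.8 on) overlapped between states, at -0.07 (SE 0.15) and 0.05 (SE 0.13). In all, 5 of 7 were called, 2 higher and 3 lower, beside 19.9% of all genes (10.3% higher and 9.61% lower), and the libraries of 5 did not overlap, beside 60.0%. Without on replicate 1 or off replicate 1, 3 were called. The median over the 7 was -0.07 and over all genes -0.011. Of the 10 enterocyte markers, Fabp1, Sis, Anpep and Slc5a1 were called lower and Fabp2 higher. Their sum was 1613.0 to 1679.3 CPM off and 1434.9 to 1458.4 CPM on, and that of 5 stem cell markers 307.4 to 380.0 CPM off and 101.3 to 141.2 CPM on. Of 7 goblet markers 5 were called higher (1676.7 to 1815.8 CPM off and 3089.4 to 3402.5 CPM on), and of 6 proliferation markers 5 were called lower (1159.1 to 1222.6 CPM off and 758.9 to 760.2 CPM on). Of 8 epithelial markers 6 were called higher, as were Mmp7 of the Paneth, Cd68 of the immune and Tat of the hepatocyte markers, while Ttr was called lower (hepatocyte sum 42.0 to 48.5 CPM off and 13.8 CPM on). Their part in the result was not tested.

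Induction of p53R172H alone in COL organoids left 1 of 7 enzymes called, lower, beside 0.142% of all genes (0.0316% higher and 0.111% lower). Otc fell from 47.3 and 26.6 to 9.40 and 11.8 CPM (-1.82, SE 0.25, adjusted p = 0.0227). The call was lost without on replicate 1 (-1.68, adjusted p = 0.0906) or off replicate 1 (-1.35, adjusted p = 0.108). Cps1 held 111.4 and 23.1 CPM in the off and 8.19 and 17.7 CPM in the on libraries, so the off replicates alone spanned a wide range. Its log2 fold change of -2.40 (SE 0.57, adjusted p = 0.152) became -3.14 (adjusted p = 0.00912) without off replicate 2 and -0.87 without off replicate 1. Oat held 608.7 and 461.7 CPM off and 259.4 and 339.9 CPM on (-0.86, SE 0.17, adjusted p = 0.106). DESeq2 called both Cps1 (adjusted p = 0.0281) and Oat (adjusted p = 0.000776). Odc1 (0.34) and Glul (0.22) did not pass, nor did Ass1 (0.10) and Asl (0.07). The libraries of 5 enzymes did not overlap, beside 39.2% of all genes. Enterocyte markers summed to 1079.8 to 1252.5 CPM off and 666.9 to 685.0 CPM on, with Apoa1, Sis and Anpep called lower and none higher, and their part in the result was not tested.

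With both mutations induced in COL organoids, the values that entered the choice of these genes, and therefore carry no test, were as follows. Cps1 held 301.2 and 193.5 CPM off and 8.78 and 13.4 CPM on (-4.48, SE 0.62, or 22.3-fold lower). Otc held 59.0 and 41.0 off and 7.32 and 7.07 on (-2.79, SE 0.26), and Oat 674.9 and 525.8 off and 189.7 and 242.5 on (-1.47, SE 0.18). These were the 3 enzymes with all on libraries below all off libraries. Glul, at 52.6 and 44.3 off and 106.6 and 80.9 on (0.96, SE 0.17), Asl (0.67, SE 0.13), Ass1 (0.53, SE 0.15) and Odc1 (0.34, SE 0.12) had all on libraries above all off libraries. Asl held 83.9 and 67.4 CPM off and 117.7 and 122.3 on, and Ass1 32.7 and 26.1 off and 36.4 and 48.7 on. The libraries of 7 of 7 enzymes did not overlap, beside 56.8% of all genes. Nothing is read from this count, since the comparison entered the choice. Enterocyte markers summed to 1133.1 to 1359.4 CPM off and 753.8 to 1124.8 CPM on, with 5 of 10 called lower and 1 higher, while 5 of 7 goblet markers were called higher and 4 of 5 stem cell markers lower. Of 6 proliferation markers, Mki67 and Top2a were called lower (1277.2 to 1527.5 CPM off and 910.7 to 1126.9 CPM on in sum). Of 6 Paneth markers, Ang4 was called higher and Defa17 lower. The immune marker Cd68, the hepatocyte marker Tat and 6 of 8 epithelial markers were called higher. The part of these markers in the values was not tested. The Oat on levels of 230.3 and 256.9 CPM in COL BRAF and 189.7 and 242.5 CPM in COL BRAFp53 overlapped, while the off levels did not.

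**Figure D3:**
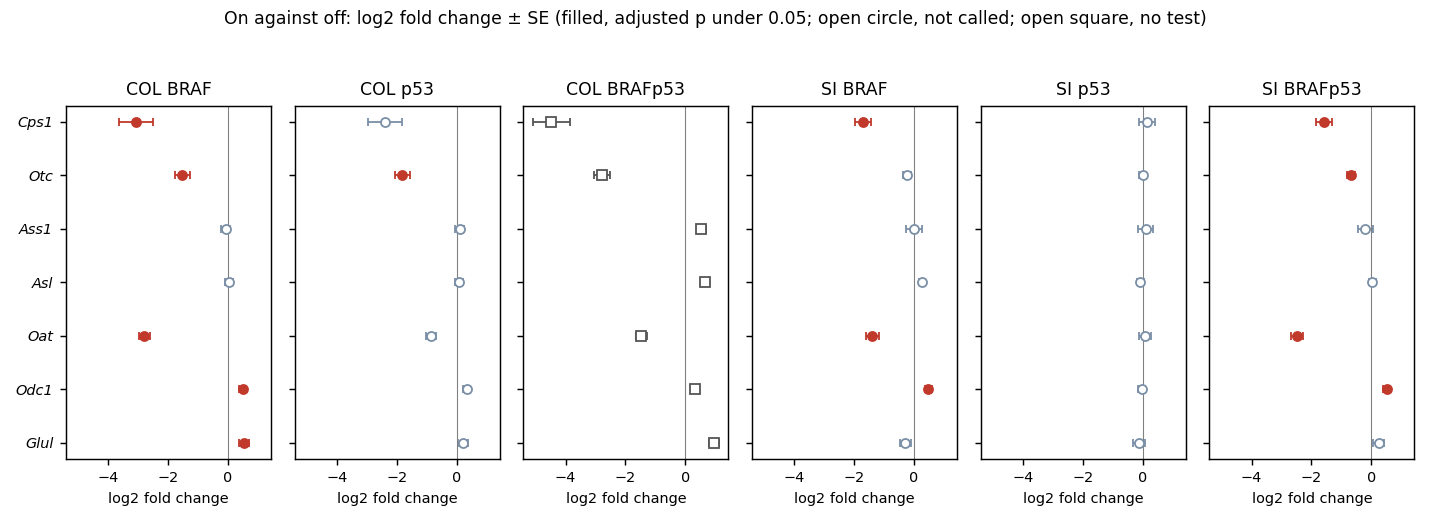
On against off log2 fold change with its SE for the 7 enzymes, with 1 panel per culture; filled symbols passed an adjusted p under 0.05, open circles did not, and open squares (COL BRAFp53) carry no test. Cps1 and Oat lie left of 0 in COL BRAF, COL p53, SI BRAF and SI BRAFp53, and Odc1 lies between 0.34 and 0.52 in those panels. None of these genes passed in COL p53, and nothing is read from the COL BRAFp53 panel.

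In SI organoids, induction of BRAFV600E alone was followed by lower Cps1 and Oat, as measured in COL, and by higher Odc1, while Otc did not pass. Cps1 went from 1004.2 and 953.6 CPM off to 432.5 and 188.3 CPM on (-1.70, SE 0.27, adjusted p = 0.00036). Without on replicate 1 the change was -2.42 (adjusted p = 1.77e-07). Oat went from 3324.6 and 2793.2 to 1456.4 and 950.4 CPM (-1.39, SE 0.21, adjusted p = 0.000215), and without that library the change was -1.73 (adjusted p = 4.12e-05). The on replicates of both genes stood apart from each other, with replicate 1 higher, and both lay below the off libraries. Odc1 rose from 82.5 and 81.4 to 123.4 and 113.1 CPM (0.48, SE 0.12, adjusted p = 0.00764, and 0.43 with adjusted p = 0.0328 without on replicate 1).

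Otc held 331.8 and 265.6 CPM off and 282.4 and 242.4 CPM on, overlapping between states (-0.23, SE 0.13, adjusted p = 0.205, and -0.34 with adjusted p = 0.115 without on replicate 1). Glul gave -0.29 (SE 0.19, adjusted p = 0.29) on 35.9 and 29.5 CPM off and 33.4 and 21.6 CPM on. Leaving out single libraries gave -0.63 to 0.00, with -0.63 without on replicate 1. Asl, at 106.1 and 98.8 off and 129.4 and 126.1 on, did not pass (0.27, SE 0.11, adjusted p = 0.0881, and 0.26 without on replicate 1), although DESeq2 called it (adjusted p = 0.0312). Ass1 held 8.15 and 8.31 CPM off and 10.8 and 6.03 CPM on, overlapping between states, and gave -0.49 (adjusted p = 0.172) without on replicate 1. Thus 3 of 7 were called beside 31.7% of all genes (17.5% higher and 14.2% lower), 1 higher and 2 lower. Without on replicate 1 it was 4 of 7, and the libraries of 4 did not overlap, beside 62.7%. All 10 enterocyte markers were called higher, from a sum of 12328.0 to 16214.7 CPM off to 52964.3 to 60115.0 CPM on. Stem cell markers summed to 387.2 to 417.0 CPM off and 53.6 to 156.8 CPM on, with 5 of 5 called lower. Of the others, 4 of 6 Paneth and 3 of 6 proliferation markers were called lower and 4 of 7 goblet and 6 of 8 epithelial markers higher. Of 6 immune markers, Csf1r and Itgam were called higher, with the list at 7.96 to 8.26 CPM off and 19.8 to 29.3 CPM on and Ptprc and Cd3e at or below 3 counts. Of 7 hepatocyte markers, Apoh was called higher and Ttr lower (18.5 to 18.6 CPM off and 8.16 to 9.55 CPM on in sum). Their part in the result was not tested.

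Induction of p53R172H alone in SI organoids called none of the 7 enzymes, beside 0.00% of all 16856 genes. In that comparison edgeR called 0 genes, with 873 at an unadjusted p under 0.05, while DESeq2 called 65, limma-voom 1 and edgeR with no filter 155. Of the 7 enzymes, 0 had an unadjusted p under 0.05. Cps1 held 1149.7 and 1251.6 CPM off and 1358.5 and 1317.8 CPM on (0.14, SE 0.26). Oat held 2780.9 and 3634.1 off and 3551.8 and 3285.6 on (0.07, SE 0.20), overlapping between states. So did Otc, with 323.4 and 362.4 off and 365.0 and 327.8 on. The log2 fold changes of the 7 lay within 0.14 of 0. The libraries of 1 enzyme, Cps1, did not overlap and were higher on, beside 35.3% of all genes without overlap. None of the 10 enterocyte markers was called. Alpi lay lower on (696.1 to 991.1 CPM off, 514.9 to 546.9 CPM on) and Apoa1 higher on (3257.3 to 3810.2 CPM off, 3818.8 to 4605.0 CPM on). The libraries of the other enterocyte markers overlapped between states.

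With both mutations induced in SI organoids, 4 of 7 enzymes were called, 1 higher and 3 lower, beside 11.5% of all genes (6.98% higher and 4.53% lower), and the libraries of 5 did not overlap, beside 54.0%. Oat went from 3943.7 and 3326.8 CPM off to 795.8 and 546.9 CPM on, or 5.56-fold lower (-2.48, SE 0.21, adjusted p = 8.28e-06). Cps1 went from 1342.9 and 1301.7 to 519.7 and 392.8 CPM, or 2.98-fold lower (-1.57, SE 0.27, adjusted p = 0.00182). Both calls held without each library in turn. Otc fell from 341.4 and 339.0 to 236.8 and 197.5 CPM (-0.69, SE 0.13, adjusted p = 0.00393), a call lost without on replicate 2 (-0.56, adjusted p = 0.0647).

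Odc1 rose from 85.7 and 92.4 to 122.6 and 139.9 CPM (0.52, SE 0.12, adjusted p = 0.0125), and missed the threshold without on replicate 2 (0.42, adjusted p = 0.148) or off replicate 1 (0.46, adjusted p = 0.117). Without on replicate 2 the count of called enzymes was 2 and without off replicate 1 it was 3. Glul (0.25), Ass1 (-0.20) and Asl (0.04) did not pass. Enterocyte markers summed to 23211.0 to 27616.4 CPM off and 35893.9 to 36662.5 CPM on, with Alpi, Apoa1, Apoa4 and Mttp higher and Anpep lower, and 7 of 7 goblet markers higher, at 628.8 to 658.8 CPM off and 1995.4 to 2238.5 CPM on in sum. Of the others, 4 of 6 Paneth and 5 of 8 epithelial markers were called higher and 1 of 5 stem cell markers lower. Of 6 immune markers, Csf1r and Itgam were called higher, with the list at 3.93 to 6.41 CPM off and 15.5 to 18.0 CPM on and Cd3e at or below 3 counts. Their part in the result was not tested.

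The responses of the SI cultures with BRAFV600E were compared by a test of the difference itself. Oat fell further in SI BRAFp53 (difference -1.09, SE 0.29, adjusted p = 0.0342). This call was lost without SI BRAF on replicate 1 (-0.74, adjusted p = 0.076), SI BRAF off replicate 2 (-0.98, adjusted p = 0.134), SI BRAFp53 on replicate 2 (-0.86, adjusted p = 0.116) or SI BRAFp53 off replicate 1 (-0.97, adjusted p = 0.128). The responses of Cps1 differed by 0.12 (SE 0.37, adjusted p = 0.90), but without SI BRAF on replicate 1 by 0.86 (adjusted p = 0.00815), without SI BRAF on replicate 2 by -0.34 and without SI BRAFp53 on replicate 1 by -0.10. Otc differed by -0.46 (SE 0.18, adjusted p = 0.157, and -0.33 without that library). Glul differed by 0.53 (SE 0.27, adjusted p = 0.269). Leaving out single libraries gave 0.26 to 0.90 for Glul, with 0.90 without SI BRAF on replicate 1. In all, 1 of 7 responses differed, lower in SI BRAFp53, beside 8.20% of all genes (1.93% higher and 6.28% lower), and 2 of 7 without SI BRAF on replicate 1. Of the 10 enterocyte markers, 8 responses were lower in SI BRAFp53 than in SI BRAF, while those of 6 of 6 Paneth, 4 of 7 goblet and 3 of 5 stem cell markers were higher. Of 8 epithelial markers, 3 responses were lower (Cdh1, Vil1 and Krt20) and 1 higher (Krt18), and that of the hepatocyte marker Ttr was higher. Their part in the result was not tested. In COL, the same pair of responses is set side by side without a test: -3.07 (SE 0.57) and -4.48 (SE 0.62) for Cps1, -1.52 (SE 0.24) and -2.79 (SE 0.26) for Otc, and -2.79 (SE 0.18) and -1.47 (SE 0.18) for Oat, in COL BRAF and COL BRAFp53.

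The responses to BRAFV600E alone were compared between tissues in a joint fit of all 24 libraries, with the difference in dose, day and medium included in the comparison. Responses of 2 of 7 enzymes differed, both lower in COL, beside 10.7% of all genes (3.31% higher and 7.40% lower). Otc fell further in COL (difference -1.33, SE 0.29, adjusted p = 0.00583, and -1.22 with adjusted p = 0.0215 without SI BRAF on replicate 1), as did Oat (-1.44, SE 0.31, adjusted p = 0.00449, and -1.10 with adjusted p = 0.0261). Both calls held without each library in turn. Cps1 differed by -1.41 and did not pass (SE 0.68, adjusted p = 0.22), and by -0.68 without SI BRAF on replicate 1. With no filter Cps1 was called (-1.4, adjusted p = 1.17e-13). Glul gave 0.79 (SE 0.27, adjusted p = 0.0744). Leaving out single libraries gave 0.51 to 1.14 for Glul, with 1.14 without SI BRAF on replicate 1. It passed with DESeq2 (adjusted p = 0.0348), with no filter (adjusted p = 0.00435) and with at least 10 counts in every library (adjusted p = 0.0331). Odc1, which was higher in both tissues, differed by -0.03 (SE 0.16, adjusted p = 0.987), and by 0.04 without SI BRAF on replicate 1. Of the 10 enterocyte markers, 9 differed, all with the lower response in COL, while 2 of 6 Paneth, 1 of 7 goblet and 1 of 5 stem cell markers had the higher response there and 1 of 6 proliferation markers the lower. Krt18 and the immune marker Cd68 had the higher and Vil1 and the immune marker Csf1r the lower response in COL. Their part in the result was not tested.

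Ordered by mean level, Cps1 was highest in SI p53 on (1338.2 ± 28.7 CPM, SD, n = 2) and SI BRAFp53 off (1322.3 ± 29.2), which overlapped, followed by SI p53 off (1200.6 ± 72.1), SI BRAF off (978.9 ± 35.8) and COL BRAF off (607.7 ± 80.9). Next came SI BRAFp53 on (456.2 ± 89.8), SI BRAF on (310.4 ± 172.7) and COL BRAFp53 off (247.4 ± 76.1), each overlapping with its neighbour. COL BRAF on (72.7 ± 3.58) and COL p53 off (67.3 ± 62.4) overlapped, and COL p53 on (12.9 ± 6.73) and COL BRAFp53 on (11.1 ± 3.30) closed the order, overlapping as well. Of the 11 pairs of neighbours, 5 overlapped for Cps1, 5 for Otc and 6 for Oat. The other enzymes had 8 overlapping pairs (Ass1, Asl and Glul) or 9 (Odc1). Otc separated the tissues entirely, from 197.5 to 365.0 CPM in SI and 7.07 to 72.2 CPM in COL. Ass1 did so in the other direction, with 6.03 to 13.8 CPM in SI and 25.4 to 48.7 CPM in COL.

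**Figure D4:**
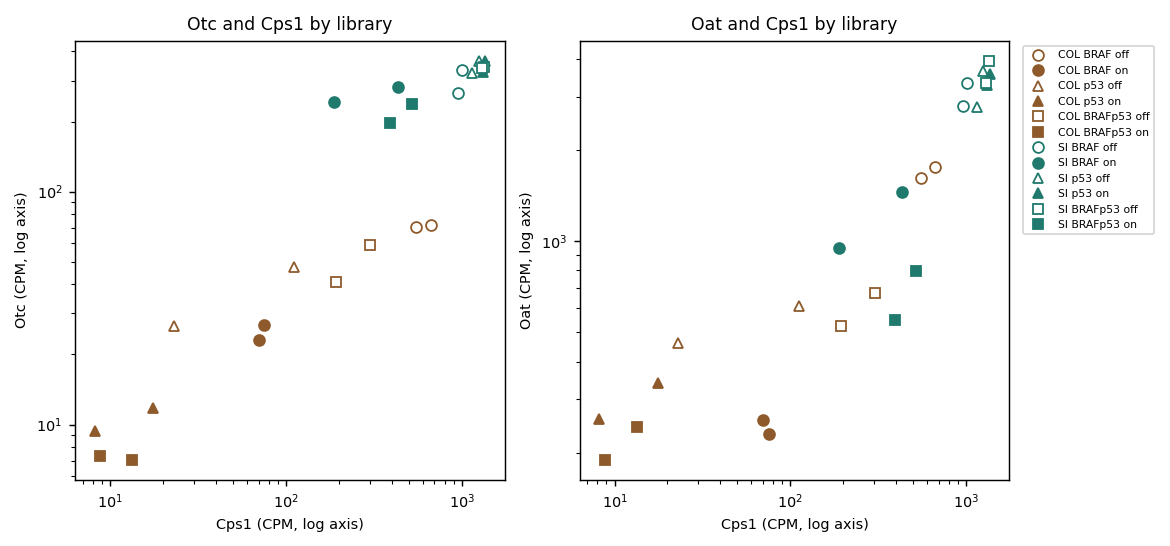
Otc (left) and Oat (right) against Cps1 in the 24 libraries, both axes in CPM on a log scale; each point is 1 library, marked by tissue, genotype and state. In SI, libraries with less Cps1 tend to hold less Otc and Oat, with Pearson r over 12 libraries of 0.83 (Otc) and 0.88 (Oat); the COL points include the BRAFp53 libraries that entered the choice of these genes, and nothing is read from them.

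Across the 12 libraries of a tissue, which share cultures and depth, the correlation with Cps1 (log2 CPM, Pearson r) was 0.95 for Otc and 0.85 for Oat in COL, which placed them at ranks 7 and 106 among 8850 genes. The COL BRAFp53 libraries, whose values entered the choice of the genes, are among these 12, and nothing is read from the COL values. In SI it was 0.83 for Otc and 0.88 for Oat, which placed them at ranks 968 and 598 among 8305 genes, so that many other genes followed Cps1 more closely there. In SI, Odc1 ran opposite to Cps1 (-0.68). By the rule for likeness, the genes closest to Cps1 in COL among 8850 considered were Far2 (0.979), Mgam (0.964), Pdcd4 (0.959), Naip6 (0.958) and Zfp292 (0.957). MGAM, maltase-glucoamylase, is a digestive enzyme of the brush border, and FAR2 makes fatty alcohols. In SI, among 8305 genes, these were Coq8a (0.991), Nrm (0.987), Atp5g2 (0.986), Pycard (0.984) and Hsd17b10 (0.98). COQ8A serves coenzyme Q synthesis, ATP5G2 is a subunit of the mitochondrial ATP synthase and HSD17B10 is a mitochondrial dehydrogenase. These are descriptions of libraries that fall into few groups.

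The other enzymes and carriers of these pathways were read from 6 lists holding 39 genes, all of which were tested. In COL BRAF, 5 rose and 8 fell, in SI BRAF 10 rose and 8 fell, and in SI BRAFp53 7 rose and 5 fell, while edgeR called 0 of the 39 in both p53 comparisons. At an unadjusted p under 0.05 there were 11 in COL p53 and 3 in SI p53, DESeq2 called 4 and 0, edgeR with no filter 6 and 1, and limma-voom 0 in both. These calls compare with 19.9%, 31.7% and 11.5% of all genes, and the same shares hold beside the counts per list. In COL BRAFp53, 9 were higher and 4 lower by the same threshold (17.7% of all genes, with 9.95% higher and 7.76% lower). That count of 13 went to 8 without on replicate 1 and to 7 without off replicate 1. The SI BRAF count was 23, with 11 higher and 12 lower, without on replicate 1. The COL BRAF count of 13 went to 6 without on replicate 1, off replicate 1 or off replicate 2. Among 5 urea cycle regulators and mitochondrial carriers, Nags and Slc25a15 fell in COL BRAF and Slc25a15 rose in SI BRAF. Slc25a15, which carries ornithine and citrulline across the inner mitochondrial membrane, went from 39.4 and 35.5 to 23.6 and 21.3 CPM in COL BRAF (-0.74, SE 0.17, adjusted p = 0.0088, lost without on replicate 2 or off replicate 1). It went from 176.8 and 171.5 to 238.8 and 240.1 CPM in SI BRAF (0.41, SE 0.10, adjusted p = 0.00762, lost without off replicate 2, and 0.42 without on replicate 1). The responses differed by -1.20 (SE 0.20, adjusted p = 0.000565, and -1.20 with adjusted p = 0.00162 without SI BRAF on replicate 1), and the SI off cultures held 7.43-fold more of it than the COL off cultures (adjusted p = 0.00157). Nags, named after its values were seen, makes the activator of CPS1. It held 9.33 and 6.40 CPM off and 1.84 and 2.04 CPM on in COL BRAF (-2.02, SE 0.61, adjusted p = 0.0364, lost whichever library was left out). In SI BRAF it held 30.7 and 29.6 off and 34.5 and 38.4 on, and did not pass (0.23, adjusted p = 0.17, and 0.31 without on replicate 1).

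Of 11 glutamine and glutamate enzymes, 2 rose and 1 fell in COL BRAF, 4 rose and 1 fell in SI BRAF, and 3 rose and 2 fell in SI BRAFp53. Gpt, an alanine aminotransferase, rose in SI BRAF from 55.3 and 50.5 to 303.7 and 391.0 CPM (2.67, SE 0.17, adjusted p = 1.67e-07, and 2.85 without on replicate 1), and in SI BRAFp53 from 108.7 and 92.2 to 222.9 and 235.9 CPM (1.16, SE 0.16, adjusted p = 0.00033). The SI responses of Gpt differed by -1.51 (SE 0.22, adjusted p = 0.00126, and -1.68 without SI BRAF on replicate 1). In COL BRAF Gpt rose as well (0.94, SE 0.25, adjusted p = 0.0191, and 0.82 to 1.03 when single libraries were left out). Gfpt1, which uses glutamine for hexosamine synthesis, rose in SI BRAF (1.05, SE 0.12, adjusted p = 2.63e-05, and 1.17 without on replicate 1) and SI BRAFp53 (0.86, SE 0.12, adjusted p = 0.000373). Its rise in COL BRAF (0.55, SE 0.16, adjusted p = 0.0281) lost the call whichever library was left out.

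Of 6 proline enzymes, Aldh18a1, Pycr1 and Pycrl fell in COL BRAF and none rose. Aldh18a1, which reduces glutamate on the route to proline and ornithine, fell in 3 cultures: from 212.7 and 191.9 to 101.3 and 97.7 CPM in COL BRAF (-1.03, SE 0.13, adjusted p = 0.000245), from 397.1 and 347.8 to 218.6 and 171.3 CPM in SI BRAF (-0.98, SE 0.15, adjusted p = 0.000234, and -1.16 without on replicate 1) and from 437.5 and 345.1 to 202.9 and 179.9 CPM in SI BRAFp53 (-1.07, SE 0.15, adjusted p = 0.000348). All 3 calls held without each library in turn. In COL BRAFp53 it gave -0.12 (SE 0.13, adjusted p = 0.569) with libraries that overlapped between states. Aldh4a1, which oxidizes the common intermediate back to glutamate, rose in SI BRAF from 0.926 and 0.244 to 7.30 and 7.99 CPM (3.70, SE 0.56, adjusted p = 0.000263, and 3.76 without on replicate 1). Leaving out off replicate 1 gave 4.89, and leaving out off replicate 2 gave 3.01. In SI BRAFp53 Aldh4a1 gave 0.70 (SE 0.52, adjusted p = 0.465), and its SI responses differed by -3.00 (SE 0.75, adjusted p = 0.0261, and -3.05 without SI BRAF on replicate 1). That difference was called without 4 of the 8 libraries, and was -4.19 without SI BRAF off replicate 1, -2.31 without SI BRAF off replicate 2 and -2.38 without SI BRAFp53 off replicate 1.

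Of 9 polyamine genes, 3 rose and 1 fell in COL BRAF, 2 rose and 1 fell in SI BRAF, and 3 rose in SI BRAFp53. Azin1, which protects ornithine decarboxylase from its antizyme, rose in SI BRAF from 163.5 and 151.2 to 351.9 and 363.8 CPM (1.14, SE 0.12, adjusted p = 9.38e-06, and 1.17 without on replicate 1). Among 5 other genes of the metabolism of arginine and its derivatives, Nos2, inducible nitric oxide synthase, rose in SI BRAF from 3.08 and 4.10 to 17.6 and 23.5 CPM (2.46, SE 0.36, adjusted p = 0.00019, and 2.66 without on replicate 1), while its response in COL BRAF was 0.15 (SE 0.21, adjusted p = 0.695). These responses differed by -2.36 (SE 0.43, adjusted p = 0.00144, and -2.55 without SI BRAF on replicate 1). In SI BRAFp53 Nos2 gave 0.45 (SE 0.35, adjusted p = 0.498). The SI responses differed by -2.01 (SE 0.50, adjusted p = 0.0251), a call that was lost without 7 of the 8 libraries and held without SI BRAF on replicate 1 (-2.20, adjusted p = 0.0182). In COL BRAFp53 Nos2 was lower on (-0.85, SE 0.21, adjusted p = 0.0159), and was called without 1 of the 4 libraries. Agmat, an agmatinase, fell in SI BRAF (-0.77, SE 0.14, adjusted p = 0.00119, and -1.06 without on replicate 1). It also fell in COL BRAF (-1.66, SE 0.52, adjusted p = 0.0406, and -2.14 to -1.32 when single libraries were left out). In COL BRAFp53 it gave -2.02 (SE 0.54, adjusted p = 0.0231), and in COL p53 -2.64 (SE 0.58, adjusted p = 0.125). Of 3 transporters of the plasma membrane, Slc1a5, a glutamine transporter, and Slc7a2, a transporter of arginine, fell in SI BRAF. Slc1a5 gave -0.70 (SE 0.13, adjusted p = 0.000936, and -0.66 without on replicate 1). Slc7a2 went from 1.71 and 2.55 CPM to 0.467 and 0.0878 CPM, or 21 and 3 counts (-2.91, SE 0.63, adjusted p = 0.00325). It gave -4.61 without on replicate 1, which leaves only the on library with 3 counts, and -2.22 without on replicate 2. In COL BRAF Slc7a2 gave -3.11 and did not pass (SE 1.17, adjusted p = 0.0887).

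Between off organoids, 11 of the 39 genes were higher and 9 lower in COL, beside 29.6% of all genes called. The count of 20 went to 11 without the SI p53 or the SI BRAFp53 culture. Those lower in COL included Slc25a15 (-2.89), Agmat (-3.60, SE 0.64, adjusted p = 0.00775, and -4.53 without the COL BRAF culture), Aldh18a1 (-1.27, SE 0.19, adjusted p = 0.00447) and Gpt (-1.40, SE 0.31, adjusted p = 0.0165, lost without the SI p53 or the SI BRAFp53 culture), and those higher included Aldh4a1 (3.68, SE 0.36, adjusted p = 0.00162) and Nos2 (3.11, SE 0.49, adjusted p = 0.00531, and 2.42 without the COL p53 culture). The responses to BRAFV600E alone differed between tissues for 14 of the 39, 2 higher and 12 lower in COL, beside 10.7% of all genes. Without SI BRAF on replicate 1 it was 12. Those of SI BRAFp53 and SI BRAF differed for 9, 2 higher and 7 lower in SI BRAFp53, beside 8.20% of all genes. That count went to 4 without SI BRAF on replicate 2, SI BRAF off replicate 2 or SI BRAFp53 off replicate 1, to 5 without SI BRAFp53 on replicate 2, and to 13 without SI BRAF on replicate 1.

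**Figure D5:**
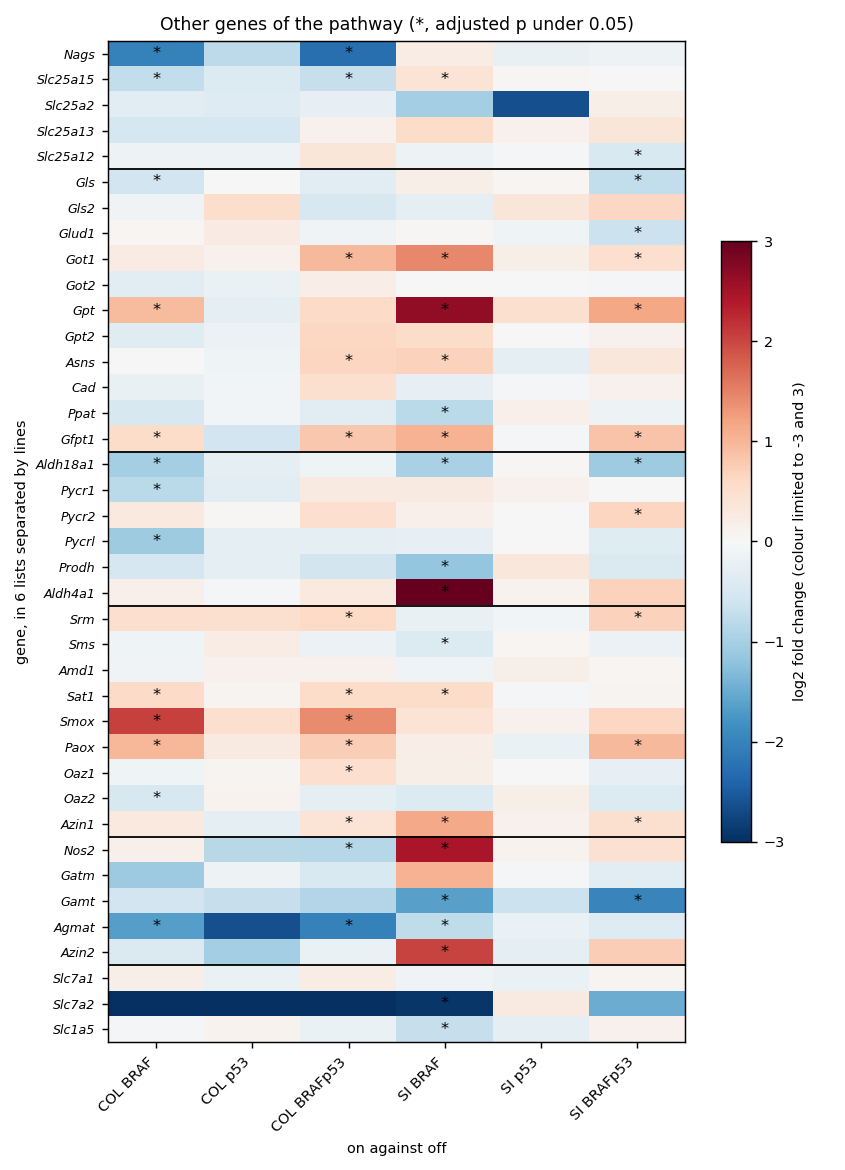
On against off log2 fold change of the 39 other genes of the pathways (rows, in 6 lists separated by lines) in the 6 cultures (columns), as colour limited to -3 and 3; a star marks an adjusted p under 0.05. Aldh18a1 is starred as lower in COL BRAF, SI BRAF and SI BRAFp53, and both p53 columns hold no star.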

How the data were processed

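RNA was sequenced in 24 libraries, 2 for each of 12 groups taken from the labels. The authors deposited whole-number counts of reads for each Ensembl gene, not normalized. Per the submitters' processing notes, Trimmomatic 0.36 and STAR 2.5.2b were used, and the methods of the study name GRCm38 (mm10), while the notes list mm9 as well. The annotation release and strand setting are not given in the sources used here. The study tested with limma.

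Of 45706 identifiers, 45143 matched GENCODE M21, and the other 563 stayed in the fits. Counts were scaled by TMM, filtered with filterByExpr and fitted per tissue with 1 mean per group (edgeR 4.0.16, quasi-likelihood, R 4.3.3), with Benjamini-Hochberg adjustment over all genes and calls at 0.05. Levels are CPM from a joint scaling of all 24 libraries. All 7 enzymes passed every filter, and some enzymes of the same pathway are not reported here. Alternatives were DESeq2 1.42.0, limma-voom from limma 3.58.1, RLE size factors, no filter, a minimum of 10 counts throughout, a replicate block, and leaving out each library or culture. The procedure was tested on simulated data.

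The members, gene lists and tests were chosen with earlier results of these data known. Named pathway genes were the 3 per list with the highest average level and those passing in most comparisons, of which some are given, and Nags and the sex-linked and regional genes were added after their values were seen. Likeness to Cps1 took the 5 highest Pearson correlations among genes with an average log2 CPM of at least 3.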

Additional observations from a re-analysis of the deposited data

Results flagged for a closer look

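Responses of 2 enzymes differed between groups by a test of the difference itself. In SI organoids, the BRAFp53 response was lower than the BRAF response for Oat (log2 difference -1.09), a call lost when any 1 of 4 libraries was left out. Between tissues, the COL BRAF response was lower than the SI BRAF response for Otc (log2 difference -1.33) and Oat (-1.44), and these calls held without each library in turn.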

How the results depend on the processing

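Of 112 counts of called enzymes under the alternatives, 97 stayed within 1.5 times the reported count. In COL p53 the count of 1 became 3 with no filter, 3 with DESeq2 and 0 with the replicate block. The COL against SI difference of BRAF responses went from 2 to 4 with no filter. The off comparison went from 4 to 2 without the SI p53 culture. Leaving out 1 library gave 3 to 4 called in COL BRAF, 0 to 2 in COL p53, 3 to 4 in SI BRAF, 0 in SI p53, 2 to 4 in SI BRAFp53, 0 to 2 for the SI difference and 2 to 3 between tissues, and leaving out a library or culture gave 2 to 5 in the off comparison.

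Reversed signs concerned values that were not called. In SI BRAF, Ass1 was 0.03 with RLE and 0.03 with DESeq2. In SI p53, Otc was 0.00 with RLE or DESeq2 and 0.01 with no filter. Between tissues, Odc1 was 0.01 with at least 10 counts.

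Leaving out libraries gave ranges across 0 in COL BRAF for Ass1 (-0.16 to 0.00) and Asl (-0.01 to 0.11), in COL p53 for Asl (-0.09 to 0.20) and Glul (-0.03 to 0.43), and in SI BRAF for Ass1 (-0.49 to 0.36). In SI p53 they were Otc -0.07 to 0.07, Odc1 -0.14 to 0.07, Ass1 -0.11 to 0.35, Oat -0.09 to 0.26 and Asl -0.16 to 0.02, and in SI BRAFp53 Asl -0.09 to 0.19. For the SI difference they were Ass1 -0.54 to 0.30, Cps1 -0.34 to 0.86 and Odc1 -0.08 to 0.12, and between tissues Odc1 -0.11 to 0.06 and Ass1 -0.46 to 0.38. The cause was not tested.

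Deviations of same-numbered libraries correlated at -0.039 to 0.057, so the numbers did not pair samples. With the replicate block Otc in COL p53 missed the threshold (adjusted p = 0.058), and Glul passed between tissues (adjusted p = 0.039).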
